A study of Mus musculus with 9 samples.

Results

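Intermediate filaments are the rope-like fibres of the cytoskeleton, and each cell type builds them from its own set of subunits. The genes described here are 10 of these subunits, chosen by symbol: the neuronal Nefl, Nefm, Nefh, Ina and Prph, the progenitor and mesenchymal Nes and Vim, the glial Gfap, and Synm and Des, which are best known from muscle. Every probe set of the array that was annotated to exactly 1 of these genes was taken, which gave 24 probe sets of the 34945 that name 1 gene, and the 10 genes stand among 18193 genes tested. No probe set that names several genes held a member.

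The auditory nerves were those of CBA/CaJ mice of both sexes, aged 8 to 12 weeks, and 3 arrays were made for each of 3 groups. Neurospheres, free-floating balls of cells used as an assay for progenitors, had grown for 12 days without serum, in medium with EGF at 20 ng/ml, FGF at 10 ng/ml and heparin at 2 µg/ml. Cultured cells were the dissociated nerve after 5 to 7 days of growth to confluency with 10% serum, the stage from which the neurospheres were made. Tissue was the dissected nerve itself. The mice carried no engineered allele according to the labels, each array received 100 ng of RNA, and nothing in the labels tells if replicates were separate mice or separate cultures. The p-values below therefore reflect the variation among these particular samples, part or all of which may be technical.

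Axons of mature neurons hold neurofilaments, built from the light, medium and heavy chains (Nefl, Nefm, Nefh) together with alpha-internexin (Ina), and in peripheral neurons also peripherin (Prph). Nestin (Nes) is the filament protein by which neural progenitors are commonly recognised, and it assembles together with vimentin (Vim), which is general to mesenchymal cells, glia and most cells in culture. Glial fibrillary acidic protein (Gfap) is the filament of astrocytes and of non-myelinating Schwann cells. Synemin (Synm) and desmin (Des) form the filaments of muscle, and synemin needs a partner such as vimentin or desmin to assemble.

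The letters upstream of the transcription start are shown for Nes and Vim, which were higher in both cultures than in tissue, and for Ina and Synm, which were lower. They come from RefSeq for the build GRCm38.p6, whose promoter windows of 300 bases (250 before the start and 50 after it) matched 7 of the 10 members: Ina, Prph, Nes, Vim, Gfap, Synm and Des. Each line below gives the 120 bases before the start, read toward the gene. They are chr3:87970973-87971092 on the plus strand for Nes, chr2:13574191-13574310 on the plus strand for Vim, chr19:47014561-47014680 on the plus strand for Ina and chr7:67759743-67759862 on the minus strand for Synm. Capitals mark the letters of the motifs searched on both strands, which were the TATA box (TATAAA), the box with the letters CCAAT, the core of the GC box (GGGCGG) and the site of the AP-1 factors (TGANTCA).
Nes: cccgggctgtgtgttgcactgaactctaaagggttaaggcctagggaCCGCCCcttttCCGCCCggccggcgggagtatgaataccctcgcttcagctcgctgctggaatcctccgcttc
Vim: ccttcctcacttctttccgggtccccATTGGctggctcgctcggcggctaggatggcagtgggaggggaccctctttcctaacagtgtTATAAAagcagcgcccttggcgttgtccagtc
Ina: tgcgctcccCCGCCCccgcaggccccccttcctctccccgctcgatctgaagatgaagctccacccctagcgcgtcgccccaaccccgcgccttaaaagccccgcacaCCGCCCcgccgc
Synm: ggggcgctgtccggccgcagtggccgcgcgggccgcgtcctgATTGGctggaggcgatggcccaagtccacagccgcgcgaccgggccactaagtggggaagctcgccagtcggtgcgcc

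Of the 7 windows, those of Vim and Prph held TATAAA, with its first base at positions -32 and -31 relative to the start, and 13.62% of all 32851 windows held it. The Vim and Synm windows held CCAAT, as did 37.41% of all windows. GGGCGG was in the windows of Ina, Prph, Nes and Des and in 35.66% of all windows, while TGANTCA was in none of the 7 and in 7.81% of all. The share of G and C ran from 55.7% (Gfap) to 72.7% (Synm) in these windows, against a median of 52.7% over all windows. These matches describe letters only.

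The values are log2 expression made by RMA, a method that combines the probes of a probe set. A gene passed the test in a comparison when its fold change was over 1.5 and its limma p, adjusted over the 18193 genes by the Benjamini-Hochberg method, was under 0.05. For a gene with several probe sets, the brightest on average across the 9 arrays stood for it, and all others are given beside it. Replicate arrays correlated at 0.993 to 0.997 across genes, and the median array value was 6.15 to 6.27. The arrays carry control probe sets for the 3′ and the 5′ end of actin and Gapdh, and the difference between the ends, which grows as RNA or its copies shorten, was not alike in the groups. For actin the 3′ probe set exceeded the 5′ one by 0.70 ± 0.15 (log2) in neurospheres, 0.36 ± 0.037 in cultured cells and 2.71 ± 0.35 in tissue (SD, n = 3 each). For Gapdh it did so by 0.41 ± 0.12 in neurospheres, 0.19 ± 0.037 in cultured cells and 1.98 ± 0.46 in tissue. Its part in the differences from tissue was not tested. As a measure of background, 3 Y-linked genes read between 2.56 and 3.53 on the cultured cell arrays. The sex of the mice behind each sample is not given, so this measure assumes that those genes gave no true signal there. It was not taken on the other arrays.

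Between neurospheres and tissue, 2 of the 10 genes rose (Nes and Vim), 6 fell (Nefl, Nefm, Nefh, Ina, Gfap and Synm) and 2 did not pass (Prph and Des). Over all genes 42.7% passed in this comparison, 21.7% upward and 21% downward. The median log2 fold change was -3.04 over the 10 genes and 0.047 over all genes. Between cultured cells and tissue, 3 rose (Nes, Vim and Des), the same 6 fell and Prph did not pass, where 42.4% of all genes passed (20.4% upward and 22% downward). The medians there were -1.98 over the 10 genes and -0.009 over all genes. Between neurospheres and cultured cells, 2 rose (Nefm and Nes), 2 fell (Synm and Des) and 6 did not pass, where 17.9% of all genes passed (9% upward and 8.91% downward). The medians there were -0.082 over the 10 genes and 0.051 over all genes. Counted by probe set over all probe sets, 6 of the 24 rose and 13 fell in neurospheres against tissue, where 39.7% of all probe sets passed (21.2% upward and 18.5% downward). In cultured cells against tissue 7 rose and 13 fell, where 40.5% passed (21.7% upward and 18.9% downward). In neurospheres against cultured cells 4 rose and 3 fell, where 17.1% passed (7.44% upward and 9.62% downward). The 3 arrays of one group did not overlap with those of the other for 9 of the 10 genes between neurospheres and tissue (68.1% of all genes), for all 10 between cultured cells and tissue (68.6%) and for 6 between neurospheres and cultured cells (48.4%). Both comparisons with tissue use the same 3 tissue arrays, so they are not independent of each other.

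**Figure D1:**
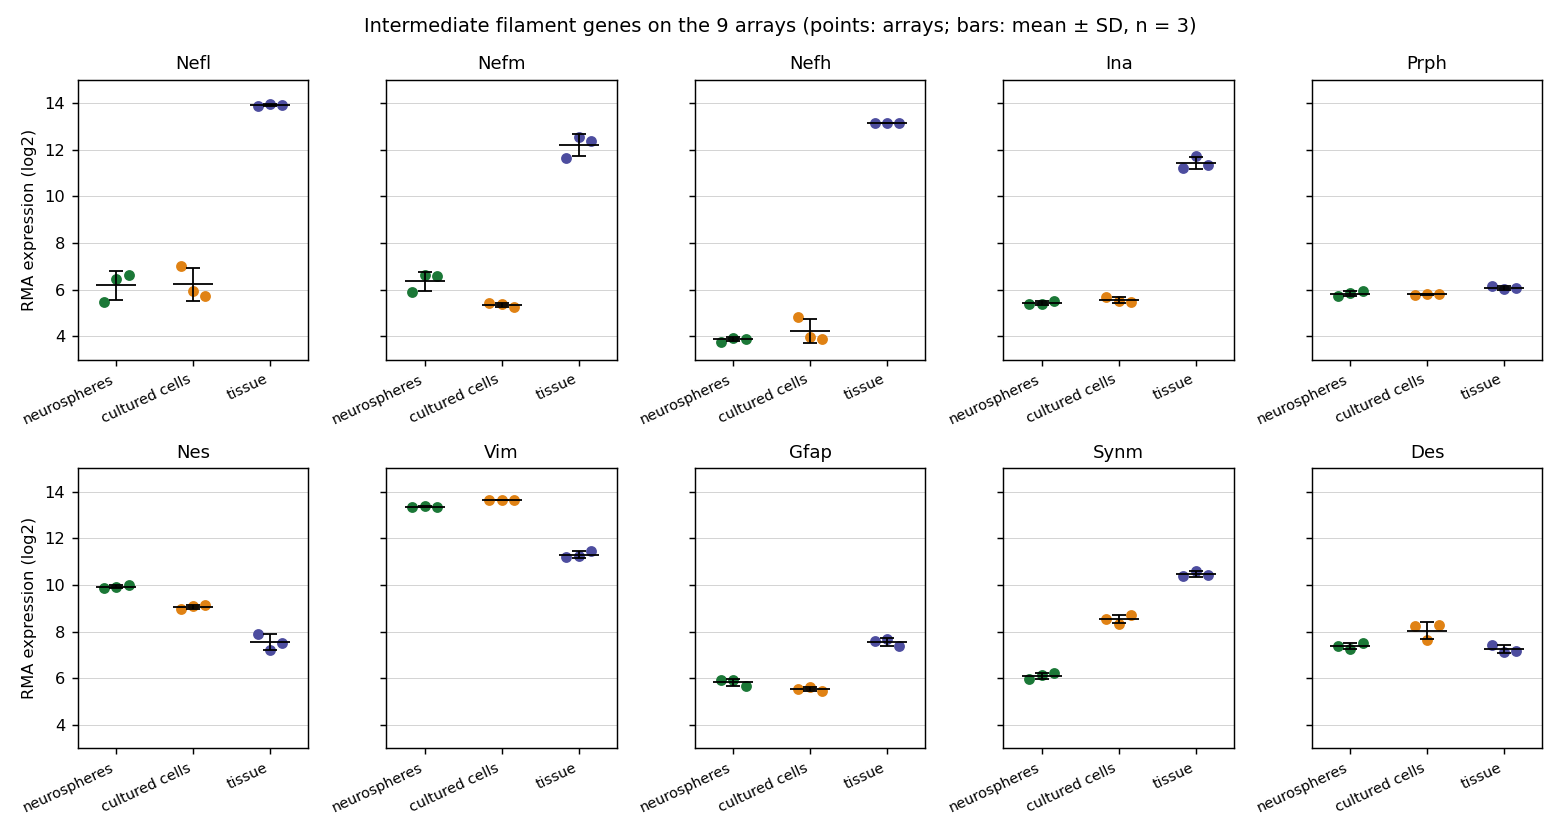
RMA expression (log2, vertical axis) of the 10 genes in neurospheres, cultured cells and tissue. Points are single arrays, and bars give the mean ± SD of 3 arrays. Nefl, Nefm, Nefh and Ina stand above 11 in all tissue samples and below 7.1 in all others, Nes and Vim are lowest in tissue, and Synm is highest in tissue and lowest in neurospheres.

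The neurofilament chains were more than 50-fold lower in both cultures than in the nerve. Nefl, the light chain, without which the other chains do not build normal filaments, read 5.48, 6.46 and 6.63 on the neurosphere arrays, 7.03, 5.94 and 5.72 on the cultured cell arrays and 13.90, 13.95 and 13.90 on the tissue arrays. The tissue arrays lay close together and far above the rest, while both cultures spread over more than 1 log2 unit and overlapped. Nefl fell, with a log2 fold change of -7.73 (SE 0.26) in neurospheres against tissue, a fold of 212 (limma, adjusted p = 2.86e-08), and of -7.69 (SE 0.28) in cultured cells against tissue, a fold of 206 (adjusted p = 9.2e-09). Its second probe set (1454672_at) gave -7.35 and -7.76 for the same comparisons.

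Nefm, the medium chain, whose gene is the neighbour of Nefl on the chromosome, read 5.88, 6.61 and 6.59 in neurospheres, 5.42, 5.39 and 5.26 in cultured cells and 11.65, 12.53 and 12.38 in tissue. It was highest in tissue and, unlike Nefl, did not overlap between the cultures, with every neurosphere array above every cultured cell array. Relative to tissue it fell, with a log2 fold change of -5.83 (SE 0.26) in neurospheres, a fold of 56.8 (limma, adjusted p = 1.63e-07), and of -6.83 (SE 0.20) in cultured cells, a fold of 114 (adjusted p = 2.19e-09).

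Nefh, the heavy chain, whose long phosphorylated tail spaces the filaments of large axons, showed the largest change of the 10 genes in both comparisons with tissue. It read 3.77, 3.93 and 3.89 in neurospheres and 4.83, 3.98 and 3.87 in cultured cells, against 13.16 on each tissue array. The deposited values for this probe set were identical on the 3 tissue arrays (13.163), and it was the only 1 of 45037 probe sets for which that was so. Nefh fell, with a log2 fold change of -9.30 (SE 0.084) in neurospheres, a fold of 630 (limma, adjusted p = 2.01e-10), and of -8.93 (SE 0.22) in cultured cells, a fold of 489 (adjusted p = 7.74e-10). With a tissue SD of 0, these errors rest on the spread within the cultures and on the spread that limma shares between genes. All culture values except 4.83 lay between 3.77 and 3.98, not far above the background range of 2.56 to 3.53. That range was measured on the cultured cell arrays only. Both folds may therefore understate the fall.

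Ina, alpha-internexin, the subunit that neurons make early and keep beside the neurofilament chains, read 5.36, 5.40 and 5.51 in neurospheres, 5.68, 5.50 and 5.47 in cultured cells and 11.23, 11.71 and 11.32 in tissue. The cultures overlapped within a narrow band, and tissue stood apart. Its log2 fold change was -5.999 (SE 0.13) in neurospheres, a fold of 64 (limma, adjusted p = 3.13e-09), and -5.87 (SE 0.13) in cultured cells, a fold of 58.6 (adjusted p = 4.8e-10). The other Ina probe sets agreed in direction but not in size, with -7.55 (1448991_a_at) and -4.77 (1448992_at) in neurospheres and -7.55 and -4.79 in cultured cells, all relative to tissue.

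Prph, peripherin, known in the adult cochlea as a marker of the sparse type II spiral ganglion neurons, did not pass in any comparison by the probe set that stood for it, and its differences depended on the probe set. The probe set used for the gene (1449796_at) read 5.72, 5.83 and 5.92 in neurospheres, 5.77, 5.82 and 5.82 in cultured cells and 6.15, 6.005 and 6.06 in tissue. Its differences from tissue, -0.25 (95% interval -0.46 to -0.037) in neurospheres and -0.27 (-0.45 to -0.087) in cultured cells, were under the fold required (limma, adjusted p = 0.0433 and 0.0152), and quantile normalization turned their sign (0.022 and 0.051). Probe set 1422530_at read 4.15, 4.40 and 4.29 in neurospheres, 4.46, 4.27 and 4.21 in cultured cells and 5.11, 5.00 and 5.21 in tissue. This probe set passed over all probe sets, with a log2 fold change of -0.83 (SE 0.11) in neurospheres (limma, adjusted p = 0.000135) and of -0.79 (SE 0.10) in cultured cells (adjusted p = 5.83e-05). Neither of the 2 remaining sets passed, with 0.23 and 0.22 for 1420256_x_at and -0.46 and -0.41 for 1449797_x_at in neurospheres and in cultured cells relative to tissue.

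Set directly against each other, the 2 cultures differed in 1 of 5 neuronal subunits by this test, where 17.9% of all genes passed. Nefm was higher in neurospheres than in cultured cells by 1.002 (log2, SE 0.19), a fold of 2 (limma, adjusted p = 0.00354), but missed the threshold by the methods' t-test (adjusted p = 0.0533). It was also among the dimmest 40% of genes on these arrays, which an alternative setting left out. The difference was -0.038 (95% interval -0.93 to 0.85) for Nefl, -0.36 (-0.89 to 0.16) for Nefh, -0.13 (-0.34 to 0.083) for Ina and 0.022 (-0.17 to 0.21) for Prph. The wide interval of Nefl leaves room for a change of more than 1.5-fold either way. The second Nefl probe set read 4.64, 6.33 and 6.24 in neurospheres, 5.70, 5.19 and 5.10 in cultured cells and 13.16, 13.05 and 13.05 in tissue. Its first neurosphere array lay below all cultured cell arrays and the other two above them, and it gave 0.41 (95% interval -0.52 to 1.33; limma over all probe sets, adjusted p = 0.507). Without that array the value was 0.96 and passed (limma, adjusted p = 0.00388), whereas the Nefl probe set used for the gene gave 0.32 (adjusted p = 0.534). That array was picked after its values were seen. With any other single array left out, the second set gave 0.11 to 0.59 and the set used for the gene -0.29 to 0.36, and neither passed. Nefm without neurosphere array 1 was 1.24 (limma over all probe sets, adjusted p = 4.29e-05). Without any other single array it was 0.88 to 1.03 and passed each time.

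The falls of the neuronal subunits came together with those of other neuronal genes, as counted on a list of 12 neuron markers. Over all genes 21% fell and 21.7% rose in neurospheres relative to tissue (median 0.047). In cultured cells 22% fell and 20.4% rose (median -0.009). Between neurospheres and cultured cells 8.91% fell and 9% rose (median 0.051). These shares belong beside every list counted below. Of the 12 markers, 11 fell in neurospheres and all 12 in cultured cells relative to tissue, and none rose, with medians of -5.81 and -5.10. The largest log2 fold changes in neurospheres were -7.75 for Calb2 and -7.67 for Pvalb, which are calcium-binding proteins, and -7.52 for the RNA-binding Elavl4. In cultured cells they were -9.05 for the synaptic Snap25, -7.99 for Calb2 and -7.84 for Pvalb. The summed signal of the list, the log2 of the sum over its genes on the linear scale, was 10.67 to 11.04 (log2) in neurospheres, 10.33 to 10.57 in cultured cells and 15.70 to 15.83 in tissue. In samples of mixed cells such as these, fewer cells of a type and less RNA per cell cannot be told apart.

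**Figure D2:**
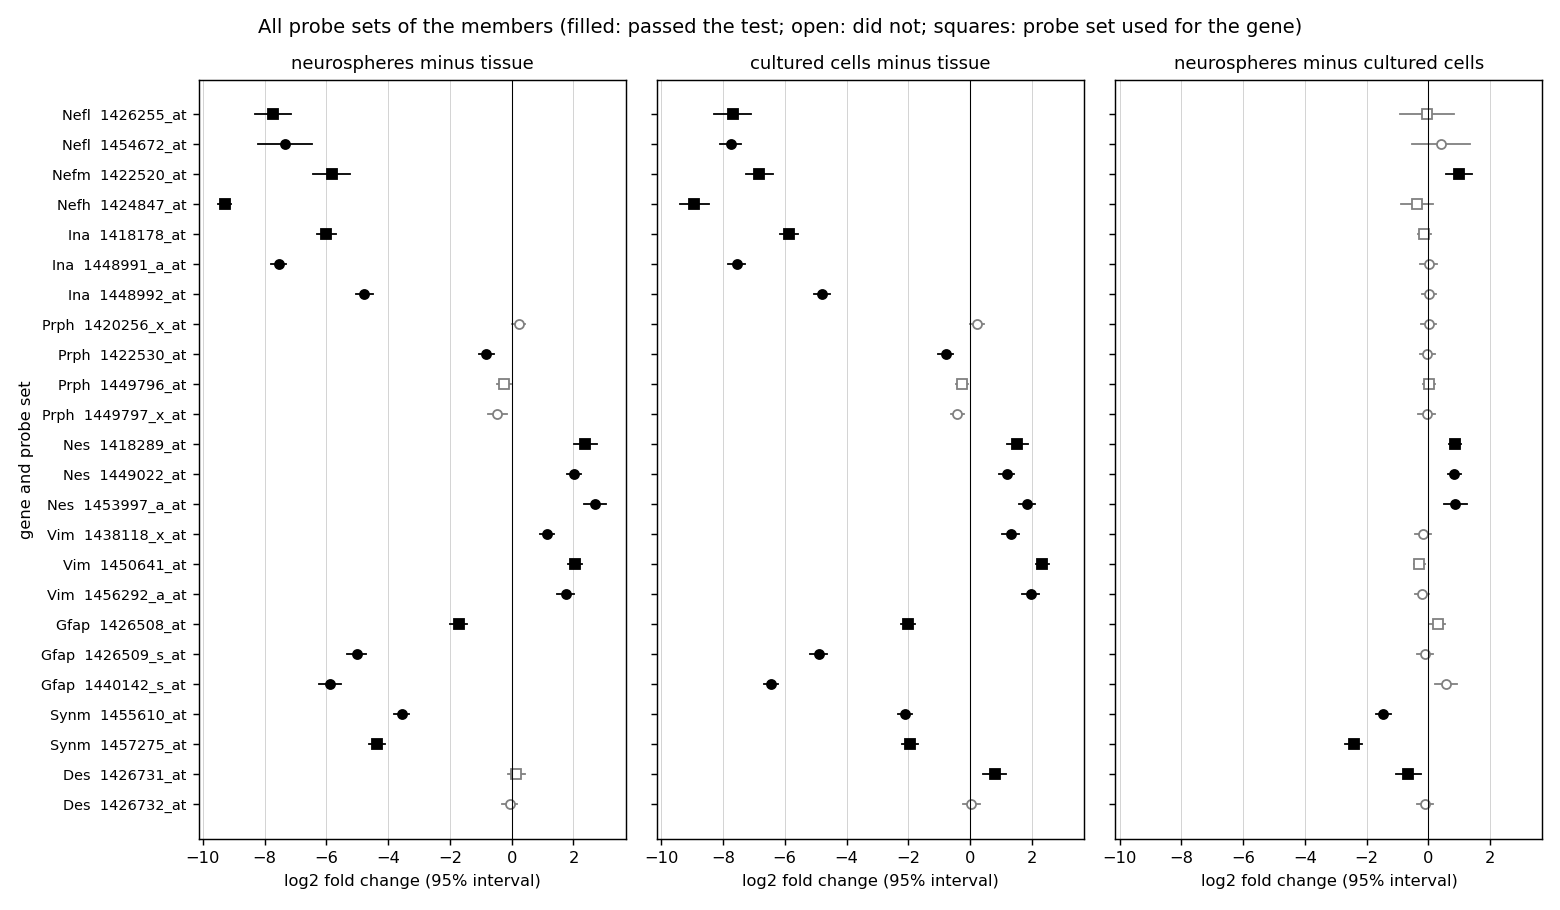
Log2 fold change (horizontal axis) with its 95% interval for each of the 24 probe sets in the 3 comparisons. Filled symbols passed limma's test over all 45037 probe sets and open ones did not, and squares are the probe sets used for the genes. Probe sets of Nefl, Nes, Vim and Synm lie on the same side of 0 in both comparisons with tissue, those of Gfap and Ina differ in size, and those of Prph lie on both sides.

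Nes and Vim were the members that rose in both cultures, and they did so in different order. Nes, nestin, read 9.89, 9.90 and 10.01 in neurospheres, 8.97, 9.11 and 9.13 in cultured cells and 7.89, 7.22 and 7.52 in tissue. No group overlapped another, and neurospheres stood highest. Nes rose by 2.39 (SE 0.16) in neurospheres over tissue, a fold of 5.24 (limma, adjusted p = 1.83e-06), by 1.52 (SE 0.15) in cultured cells over tissue, a fold of 2.88 (adjusted p = 1.35e-05), and by 0.87 (SE 0.084) in neurospheres over cultured cells, a fold of 1.82 (adjusted p = 0.000114).

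All 3 Nes probe sets passed in all 3 comparisons. The other Nes probe sets gave 2.03 and 2.71 in neurospheres over tissue, 1.18 and 1.84 in cultured cells over tissue, and 0.84 and 0.87 in neurospheres over cultured cells. The step between the cultures was therefore alike in the 3 probe sets, 0.84 to 0.87, while the difference from tissue varied more.

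Vim, vimentin, read 13.34, 13.37 and 13.34 in neurospheres, 13.63, 13.65 and 13.67 in cultured cells and 11.20, 11.26 and 11.46 in tissue. Its arrays agreed within 0.04 log2 units in either culture, and cultured cells, not neurospheres, stood highest. The probe set ranked at percentile 99.7 on the neurosphere arrays and 99.9 on the cultured cell arrays, near the top of the scale. The part of that rank in the close values was not tested. Vim rose by 2.04 (SE 0.094) in neurospheres over tissue, a fold of 4.12 (limma, adjusted p = 1.85e-07), and by 2.34 (SE 0.091) in cultured cells over tissue, a fold of 5.07 (adjusted p = 1.45e-08). Between neurospheres and cultured cells the difference was -0.30 (SE 0.073, adjusted p = 0.0138), a fold of 1.23 and so under the fold required. The other Vim probe sets rose by 1.14 and 1.76 in neurospheres and by 1.31 and 1.96 in cultured cells over tissue.

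Vim and Nes were set beside lists of fibroblast and proliferation markers, since vimentin is also a fibroblast filament. Of 8 fibroblast markers, 7 rose and none fell in neurospheres over tissue (median 1.62), led by the collagen Col3a1 (3.10), the matrix protein Postn (2.91) and Lum (2.50). In cultured cells over tissue 5 rose (median 1.68), with Postn at 3.26, Col1a1 at 3.06 and Fn1 at 2.48, and Dcn fell by 1.09. The summed signal of this list was 16.10 to 16.14 in neurospheres, 15.63 to 15.82 in cultured cells and 14.56 to 14.75 in tissue. Of 5 proliferation markers all 5 rose in either culture over tissue (medians 5.18 in neurospheres and 6.84 in cultured cells). Bub1, Birc5 and Ccnb2 led in neurospheres (5.49, 5.19 and 5.18), and Bub1, Birc5 and Mki67 in cultured cells (7.11, 6.92 and 6.84). All 5 fell in neurospheres against cultured cells (median -1.68), with Mki67 at -2.03, Birc5 at -1.73 and Top2a at -1.68, while Nes rose. Of the fibroblast markers 3 rose and 1 fell there, with Col1a1 at -3.69, Lum at 2.41 and Dcn at 1.77. Their part in the levels of Nes and Vim was not tested.

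Gfap fell in both cultures, by an amount that depended strongly on the probe set. The set used for the gene (1426508_at) read 5.93, 5.91 and 5.67 in neurospheres, 5.54, 5.61 and 5.47 in cultured cells and 7.61, 7.67 and 7.38 in tissue. Its log2 fold change was -1.72 (SE 0.11) in neurospheres, a fold of 3.29 (limma, adjusted p = 1.95e-06), and -2.01 (SE 0.099) in cultured cells, a fold of 4.04 (adjusted p = 7.12e-08), relative to tissue. Tissue lay above both cultures without overlap.

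Probe set 1440142_s_at read 4.05, 4.47 and 3.87 in neurospheres, 3.47, 3.54 and 3.68 in cultured cells and 10.07, 10.07 and 9.90 in tissue. Its log2 fold change was -5.89 (SE 0.15) in neurospheres (limma over all probe sets, adjusted p = 6.03e-09) and -6.45 (SE 0.099) in cultured cells (adjusted p = 1.83e-11), relative to tissue. The lowest of the cultured cell values lies within the background range on those arrays (2.56 to 3.53), and the others lie just above it. The value -6.45 may therefore understate the fall. Probe set 1426509_s_at read 4.15, 3.83 and 3.93 in neurospheres, 4.23, 3.98 and 4.04 in cultured cells and 9.22, 8.93 and 8.80 in tissue, with log2 fold changes of -5.02 in neurospheres and -4.90 in cultured cells. The set that was brightest on average, and so stood for the gene, was thus the one with the smallest change, and the mean of the 3 sets gave -4.21 in neurospheres and -4.46 in cultured cells. Both sets with the larger change carry the suffix that marks probes shared between transcripts.

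**Figure D3:**
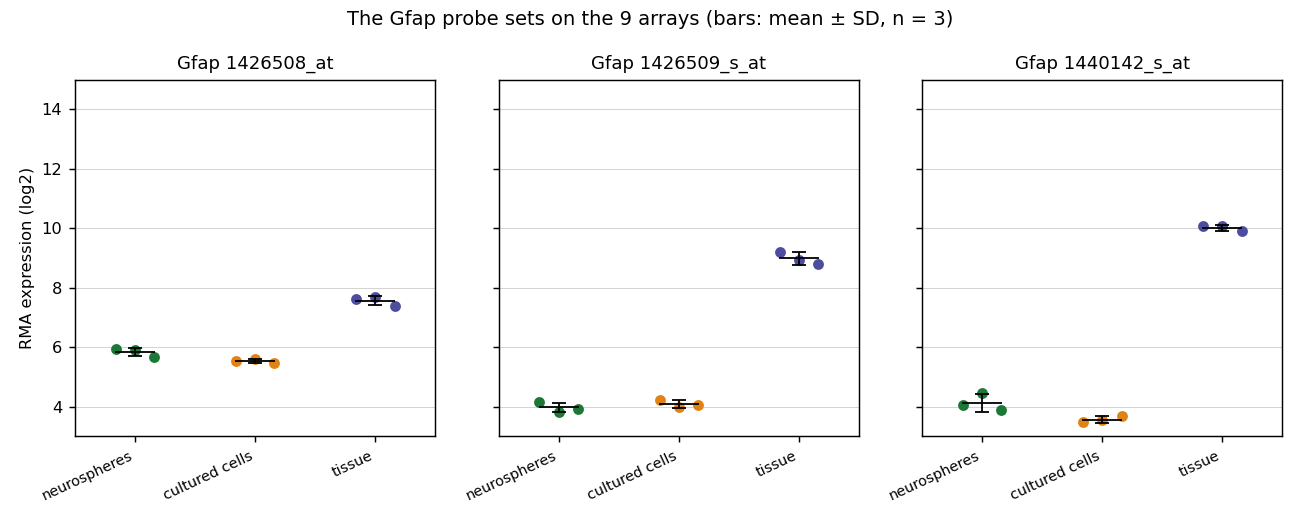
RMA expression (log2, vertical axis) of the 3 Gfap probe sets in neurospheres, cultured cells and tissue, where points are arrays and bars give mean ± SD (n = 3). In each of them tissue lies above both cultures, with log2 fold changes between -5.89 and -1.72 in neurospheres and between -6.45, which may understate the fall, and -2.01 in cultured cells.

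Between the cultures no Gfap probe set passed. The set used for the gene was higher in neurospheres than in cultured cells by 0.30 (95% interval 0.071 to 0.52; limma, adjusted p = 0.0469), a fold of 1.23. The others gave 0.57 (0.22 to 0.91) for 1440142_s_at and -0.11 (-0.37 to 0.15) for 1426509_s_at. The value 0.57 missed the required fold narrowly, and it passed without neurosphere array 1 (0.61), neurosphere array 3 (0.70) or cultured cell array 3 (0.63). It did not pass without neurosphere array 2 (0.40), cultured cell array 1 (0.52) or cultured cell array 2 (0.55).

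Glial genes beyond Gfap were counted on lists of astrocyte and of Schwann cell and myelin markers. Of 6 astrocyte markers, 4 fell in neurospheres and 5 in cultured cells relative to tissue, and none rose (medians -2.76 and -3.05). The water channel Aqp4 stood at -7.72 in neurospheres and -7.57 in cultured cells. It read 3.02 to 3.19 in neurospheres and 3.25 to 3.28 in cultured cells. Both lie within the background range, which was measured on the cultured cell arrays only, so these differences may understate its fall. Slc1a2 and the glycolytic enzyme Aldoc followed, at -5.11 and -4.60 in neurospheres and at -3.61 and -5.57 in cultured cells. Between the cultures 3 of these markers rose in neurospheres and 1 fell, with the glutamate transporters Slc1a3 at 1.56 and Slc1a2 at -1.50 and with Aldoc at 0.97. Of 6 Schwann cell and myelin markers measured, 5 fell in each culture relative to tissue (medians -4.20 in neurospheres and -4.28 in cultured cells), among them the myelin protein Mbp at -6.29 in neurospheres and -5.49 in cultured cells. The calcium-binding S100b stood at -5.55 and -5.15, and the myelin glycoprotein Mag at -4.56 and -4.44, in neurospheres and in cultured cells. Between the cultures the myelin protein Pmp22 alone of this list passed, at -0.74 in neurospheres against cultured cells.

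Synm, synemin, separated all 3 groups, with steps in a single direction. It read 5.96, 6.13 and 6.22 in neurospheres, 8.52, 8.35 and 8.69 in cultured cells and 10.38, 10.60 and 10.41 in tissue. No group overlapped another. Its log2 fold change was -4.36 (SE 0.11) in neurospheres against tissue, a fold of 20.5 (limma, adjusted p = 4.98e-09), -1.94 (SE 0.11) in cultured cells against tissue, a fold of 3.84 (adjusted p = 2.06e-07), and -2.42 (SE 0.11) in neurospheres against cultured cells, a fold of 5.35 (adjusted p = 2.92e-06). That last change was the largest between the cultures among the 10 genes. The second Synm probe set (1455610_at) read 5.65, 5.49 and 5.76 in neurospheres, 7.09, 6.95 and 7.23 in cultured cells and 9.20, 9.18 and 9.22 in tissue. It gave -3.57, -2.11 and -1.46 in those comparisons and passed in all 3.

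Des, desmin, was highest in cultured cells. It read 7.40, 7.27 and 7.53 in neurospheres, 8.23, 7.62 and 8.29 in cultured cells and 7.44, 7.14 and 7.17 in tissue, so that neurospheres and tissue overlapped while cultured cells lay above both. Des rose by 0.80 (SE 0.17) in cultured cells over tissue, a fold of 1.74 (limma, adjusted p = 0.00252), and fell by 0.65 (SE 0.17) in neurospheres against cultured cells, a fold of 1.56 (adjusted p = 0.0208). In neurospheres against tissue the difference was 0.15 (95% interval -0.11 to 0.41; adjusted p = 0.293). The other Des probe set (1426732_at) read 3.76 to 4.13 over the 9 arrays and passed in no comparison, with -0.066 in neurospheres and 0.039 in cultured cells relative to tissue. It ranked between percentiles 12.7 and 18.6 of the probe sets on each array, not far above the background range of 2.56 to 3.53. It may therefore carry little signal in any group.

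The fall of Des between the cultures depended on single arrays. Its adjusted p passed 0.05 when neurosphere array 2, cultured cell array 1 or cultured cell array 3 was left out (limma, 0.0632, 0.0712 and 0.0803, with differences of -0.58, -0.55 and -0.53). With the mean of both probe sets Des passed neither between the cultures (-0.38, limma, adjusted p = 0.062) nor between cultured cells and tissue (0.42, adjusted p = 0.017), where the fold was under 1.5. That mean includes the dim set 1426732_at, which draws the differences toward 0.

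Des and Synm are muscle subunits, so smooth and striated muscle markers were read beside them. In cultured cells over tissue 4 of 8 smooth muscle and pericyte markers rose and 3 fell (median 0.91). There the actin-binding proteins Tagln and Cnn1 rose by 3.44 and 3.23, while the myosin Myh11 (-2.21), Mcam (-0.77) and the pericyte gene Rgs5 (limma, adjusted p = 8.9e-06) fell. In neurospheres against cultured cells 3 fell, with the smooth muscle actin Acta2 at -4.93, Tagln at -3.80 and Cnn1 at -3.24, and 2 rose, with Mcam at 0.96 and Rgs5 at 0.90. In neurospheres against tissue, where Des did not pass, 3 fell and 1 rose (median -0.23), with Acta2 at -3.49, Myh11 at -2.14 and the receptor Pdgfrb at 1.52. The summed signal of the list was 13.03 to 13.28 in neurospheres, 14.19 to 14.47 in cultured cells and 12.93 to 13.33 in tissue, and so, like Des, was highest in cultured cells. Synm did not follow this order, being highest in tissue. Of 8 striated muscle markers, 2 fell (Myl1 at -2.25 and Tnnt2 at -0.60) and 2 rose (Actc1 at 1.41 and Acta1 at 1.40) in cultured cells over tissue. In neurospheres against tissue Myl1 alone of these passed, at -2.10, and in neurospheres against cultured cells Actc1 (-1.40) and Acta1 (-1.23) fell. Their part in the levels of Des and Synm was not tested.

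Filament subunits outside the 10 genes were counted in the same way. Over all genes 21.7% rose and 21% fell in neurospheres against tissue, and 20.4% rose and 22% fell in cultured cells against tissue. Between neurospheres and cultured cells 9% rose and 8.91% fell. Of 16 keratins, the filaments of epithelia, 3 fell and none rose in neurospheres against tissue (median -0.048), namely Krt19 (-1.87), Krt18 (-1.39) and Krt8 (-1.19). In cultured cells over tissue 4 rose and none fell (median 0.12), led by Krt7, which rose by 2.65 and read 4.88, 4.67 and 4.66 in neurospheres, 7.67, 7.13 and 7.35 in cultured cells and 4.83, 4.77 and 4.59 in tissue. Krt8 and Krt18 rose by 0.76 each. Krt7 thus stood high in cultured cells only, with neurospheres and tissue overlapping. In neurospheres against cultured cells 4 fell, with Krt7 at -2.64, Krt19 at -2.51 and Krt18 at -2.15, and Krt10 rose by 0.68.

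Lamins, which line the inside of the nucleus, were listed with a few further filament genes, 6 in all. In neurospheres over tissue 2 rose (median 0.41), with Lmna at 2.05 and Lmnb1 at 0.68, and none fell. In cultured cells over tissue 3 rose (median 0.81), with Lmna at 2.46, Lmnb1 at 1.46 and Lmnb2 at 1.24. Between neurospheres and cultured cells, Lmnb2 (-0.81) and Lmnb1 (-0.78) fell.

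Cytolinkers, the large proteins that tie filaments to junctions and to other parts of the cytoskeleton, mostly fell. Of 7, 4 fell in neurospheres against tissue and none rose (median -1.13), with the desmosomal Dsp at -5.32, Eppk1 at -2.83 and Dst, which links filaments to microtubules in sensory neurons, at -2.09. In cultured cells against tissue 4 fell (median -1.09), with Dsp at -3.32, Eppk1 at -2.21 and Dst at -1.91, and Macf1 rose by 0.73. In neurospheres against cultured cells 4 fell (median -0.63), among them Dsp (-2.01), Macf1 (-1.21) and plectin (Plec, -0.75).

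Of 7 kinases and kinase activators that act on filament subunits, 3 rose and 2 fell in each culture relative to tissue. The mitotic kinases, which act on vimentin at cell division, rose over tissue, with Cdk1 at 4.12, Aurkb at 3.55 and Plk1 at 3.00 in neurospheres and at 5.57, 5.38 and 4.94 in cultured cells. Cdk5r1, the neuronal activator of the kinase that acts on neurofilament tails, stood at -2.45 in neurospheres and -2.55 in cultured cells, and Prkca at -1.05 and -1.59. In neurospheres against cultured cells 3 fell and none rose, namely Plk1 (-1.95), Aurkb (-1.84) and Cdk1 (-1.45).

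Among 4 genes of filament chaperoning and turnover, Padi2, an enzyme that converts arginine to citrulline in Gfap and vimentin, read 5.81, 5.75 and 5.92 in neurospheres, 6.08, 6.03 and 6.02 in cultured cells and 10.82, 10.44 and 10.77 in tissue. Its log2 fold change was -4.85 in neurospheres and -4.64 in cultured cells. Cryab, a small heat shock protein that binds desmin and Gfap filaments, read 11.09, 10.44 and 10.63 in neurospheres, 12.62, 12.81 and 12.70 in cultured cells and 13.13, 13.19 and 13.12 in tissue. Like Synm it was lowest in neurospheres, at -2.42 against tissue and -1.99 against cultured cells. Trim2, a ubiquitin ligase for the neurofilament light chain, stood at -2.03 in neurospheres and -2.21 in cultured cells relative to tissue, and the small heat shock protein Hspb1 rose by 0.71 in cultured cells.

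**Figure D4:**
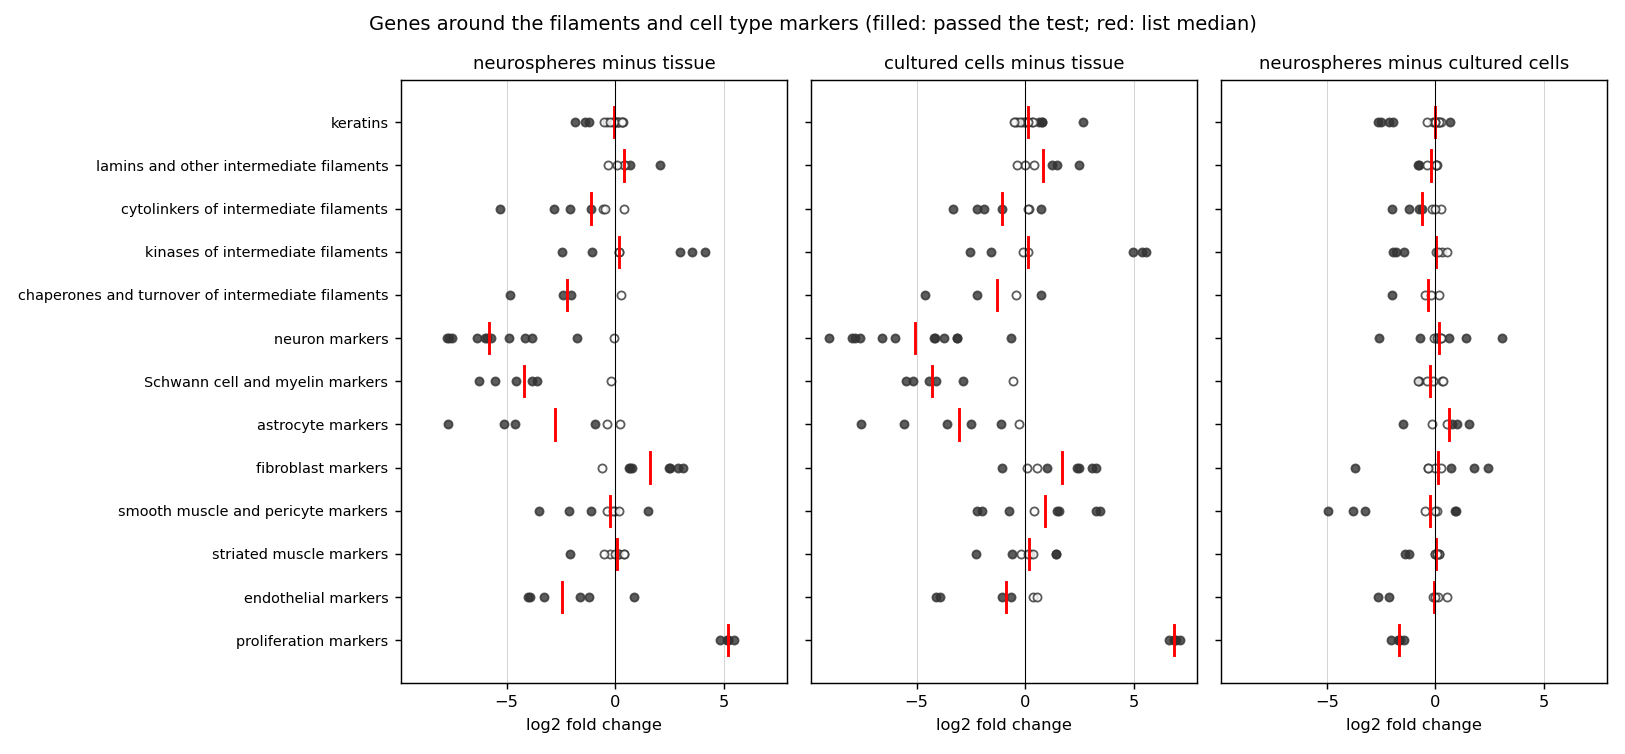
Log2 fold changes (horizontal axis) of the genes of each list in the 3 comparisons, with filled points for genes that passed the test, open points for those that did not, and red lines for list medians. The keratins centre near 0, the neuron markers have medians of -5.81 in neurospheres and -5.10 in cultured cells relative to tissue, and the proliferation markers have medians of 5.18 and 6.84.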

How the data were processed

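The deposited table holds log2 expression values, which the authors made by RMA in Affymetrix Expression Console from Affymetrix arrays (MAS5 is also named in the submitters' notes, no versions are given, and no genome build is named in the sources used here). Of 45101 probe sets, 64 were controls. Of the others, 34945 name 1 gene, 932 several and 9160 none, and 9010 of 18193 genes had more than 1 probe set. Symbols were matched by gene ID to RefSeq (GRCm38.p6), where 162 had no match and were kept. Values were used as deposited, with no filter. Each comparison used its own 6 arrays and limma's lmFit and eBayes with the default prior (limma 3.58.1, R 4.3.3, 2-sided p), for genes and, separately, for all 45037 non-control probe sets. The methods name Student's t-test, which limma replaced because 3 arrays give a poor estimate of spread. The fit was tested on simulated data. Arrays give no read depth, and their number limits the precision.

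All 10 genes are named with every probe set. Of each other list (keratins, lamins, cytolinkers, kinases, chaperones and turnover, and markers of neurons, Schwann cells, astrocytes, fibroblasts, smooth muscle, striated muscle, endothelium and proliferation), the rule named the 3 genes with the largest change that passed and those against the majority. Tnnt2 is named outside it, after its values were seen. Genes and lists were chosen with earlier results of these data known, and lists have no set test. Alternatives were other probe set rules, scalings, priors, thresholds and tests, the replicate block, a filter on dim genes and leaving out arrays.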

Additional observations from a re-analysis of the deposited data

How the results depend on the processing

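No direction was reversed among the called results. Of 532 values for single members under the alternatives, 518 stayed on the same side of the test, 4 gained and 10 lost a call. Genes called higher numbered 2359 at fold 2 and 6013 with no fold threshold in neurospheres against tissue, 2214 and 5705 in cultured cells against tissue, and 752 and 3488 in neurospheres against cultured cells, where 866 and 2879 were lower. In that last comparison the members called higher were 1 in place of 2 without the dimmest 40% of genes, with the methods' t-test after Benjamini-Hochberg adjustment and at fold 2, and the members called lower were 1 with the mean of the probe sets, with that t-test and at fold 2. Among those called higher, Nefm was itself among the dim genes left out, so it could not be called there. It lost its call by that t-test, and Nes lost its call at fold 2. Beyond what each setting changes by construction, the cause of these changes was not tested. Leaving out 1 array gave 1 to 2 members lower, the lost one being Des. Quantile normalization moved the median of all genes in cultured cells against tissue by 0.12 (log2). Whether replicate numbers pair the samples was not settled. Deviations from the group mean correlated at -0.19 to 0.206 between same-number arrays of different groups, with 2 of 9 pairs over 0.1. Both of those lay between cultured cells and tissue, where the same-number values were 0.206, 0.069 and 0.127. The replicate block gave 3955 genes higher and 3822 lower in neurospheres against tissue, and 3713 and 4014 in cultured cells against tissue. In neurospheres against cultured cells it gave 1640 and 1613, and no member count changed in any comparison.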

Other observations

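Neuronal genes other than the filament subunits differed between the cultures in both directions. Of 12 neuron markers, 3 were higher and 2 lower in neurospheres than in cultured cells (limma, over all genes), where 9% of all genes were higher and 8.91% lower. The synaptic Snap25 was higher by 3.06 (SE 0.31, adjusted p = 0.000134), with 8.58, 7.21 and 7.55 in neurospheres, 4.72, 4.56 and 4.90 in cultured cells and 13.68, 13.87 and 13.79 in tissue. The ubiquitin hydrolase Uchl1 was higher by 1.39 (adjusted p = 4.69e-05) and the growth-associated Stmn2 was lower by 2.60 on the log2 scale, with 5.18, 5.00 and 5.15 in neurospheres and 7.46, 8.44 and 7.23 in cultured cells. The dendritic Map2 was the other marker that fell, at -0.73 (adjusted p = 0.00408). Neurosphere array 1, the lowest of its group for Nefl and Nefm, was the highest of its group for Snap25 and Uchl1.

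Endothelial markers were mostly lower in the cultures than in tissue. Of 6, 5 fell and 1 rose (Cdh5 by 0.84) in neurospheres against tissue, and 4 fell in cultured cells against tissue, with Cldn5 at -4.02 in neurospheres and -4.12 in cultured cells and Vwf at -3.94 and -3.93. Tek stood at -3.30 in neurospheres and Pecam1 at -1.09 in cultured cells. Tek (-2.64) and Kdr (-2.12) fell in neurospheres against cultured cells.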
